A study of Mus musculus with 5 samples.

Results

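A set of 7 chromatin genes of mouse cortical neurons was followed through their alternative splicing after knockdown of PQBP1, a nuclear polyglutamine-binding protein that associates with the spliceosome. They are Kdm1a, Phf21a, Kdm4b, Ehmt2, Mll3, Mbd1 and Meaf6, 7 of the 457 genes in the authors' deposited table of splicing targets. All rows of each event assigned to one of the 7 gene names were taken, which gave 13 events with 31 junction rows, of 585 events with 1402 junction rows in the whole table. The table holds events already selected on the same contrast, so the folds and p-values below describe the members and were not tested again. Among the 13, 10 events offer a choice between 2 junctions and 3 between more.

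The tested cells were cultured cortical neurons from C57BL/6 mouse embryos (E16.5), transduced with a lentivirus carrying a hairpin against PQBP1 (knockdown, 2 samples). The controls were the same kind of culture transduced with a lentivirus carrying a non-targeting hairpin (mock knockdown, 3 samples), and both groups were labelled day 5 in vitro. PolyA RNA was sequenced. Separate cultures are not stated for the samples within a group, so the deposited p-values can rest on technical spread alone. The labels name 1 hairpin per group. The deposited table gives 1 log2 fold and 1 p-value per junction for the whole comparison and no value for any sample, so no standard deviation, n or depth stands behind the folds here. It gives no gene levels either, so neither the level of Pqbp1, which has no event in the table, nor markers of neurons or other cell types could be checked.

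Histones carry methyl and acetyl groups that help set whether a gene is read, and each group is written, removed or recognised by a dedicated protein. Kdm1a encodes LSD1, a demethylase of H3K4, a lysine of histone H3, that works with the CoREST corepressor and with histone deacetylases. Phf21a encodes BHC80, a subunit of the same complex that binds histone H3 when H3K4 is unmethylated. The complex is known for silencing neuronal genes outside neurons, and subunits of it have neuron-specific splice forms. Ehmt2 encodes G9a, which methylates H3K9, another lysine of that histone, and Kdm4b encodes a demethylase that removes methyl groups from that lysine. Mll3, now named Kmt2c, methylates H3K4 at enhancers. Mbd1 binds methylated DNA, and Meaf6 is a small subunit of several histone acetyltransferase complexes.

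The exons on which the events of Kdm1a, Phf21a, Ehmt2, Kdm4b and Meaf6 turn are shown here so that their length and reading frame can be seen beside the folds. They were read 5′ to 3′ from GENCODE M21 transcripts on GRCm38, the assembly also called mm10. Capitals mark the alternative exon, or for Kdm4b the 21 nt between its first and its second acceptor, and the lower case marks the 10 nt of exon joined on each side. The coordinates are chr4:136582040-136582099 and chr4:136551872-136552018 on the minus strand for Kdm1a, chr2:92351701-92351864 and chr2:92351609-92351631 on the plus strand for Phf21a, chr17:34911363-34911478 on the plus strand for Ehmt2, chr17:56394769-56394789 on the plus strand for Kdm4b, and chr4:125107517-125107546 on the plus strand for Meaf6.
Kdm1a 60 nt exon: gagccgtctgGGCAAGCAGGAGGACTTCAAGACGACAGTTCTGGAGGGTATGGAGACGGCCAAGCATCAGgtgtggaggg
Kdm1a 147 nt exon: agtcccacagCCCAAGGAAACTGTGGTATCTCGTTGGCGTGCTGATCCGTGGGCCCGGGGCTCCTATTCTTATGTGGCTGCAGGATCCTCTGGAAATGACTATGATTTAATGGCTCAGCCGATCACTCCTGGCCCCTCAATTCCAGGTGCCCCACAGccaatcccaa
Phf21a 164 nt exon: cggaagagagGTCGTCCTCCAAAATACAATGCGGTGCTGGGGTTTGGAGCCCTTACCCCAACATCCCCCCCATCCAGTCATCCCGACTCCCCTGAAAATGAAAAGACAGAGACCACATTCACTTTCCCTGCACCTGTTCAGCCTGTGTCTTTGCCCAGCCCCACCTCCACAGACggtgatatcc
Phf21a 23 nt exon: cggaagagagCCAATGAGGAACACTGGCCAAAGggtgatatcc
Ehmt2 116 nt exon: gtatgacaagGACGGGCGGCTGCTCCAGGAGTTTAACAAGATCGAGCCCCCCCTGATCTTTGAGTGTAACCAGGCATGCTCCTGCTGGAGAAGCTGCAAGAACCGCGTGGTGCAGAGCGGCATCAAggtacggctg
Kdm4b 21 nt: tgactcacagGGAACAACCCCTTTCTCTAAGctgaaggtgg
Meaf6 30 nt exon: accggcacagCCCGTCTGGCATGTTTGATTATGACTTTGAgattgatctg

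In an event with 2 junctions one splice site is common to both and the other is chosen. The change is given as the use of the nearer over the farther junction in the knockdown, divided by that quotient in the mock knockdown. For a cassette exon, an exon that is either kept or skipped, the nearer junction is the inclusion junction. The folds of 2 junctions also fix the share of each in both groups, if the shares in a group add up to the whole, and these are called implied shares. They are arithmetic on the deposited folds and not counted reads.

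Kdm1a was listed 4 times in the authors' deposited table, for 2 coding cassette exons that were each read from both of their sides, and both exons were included less in the knockdown. The first is a 60 nt exon, exon 3 of 20 in transcript Kdm1a-202 and absent from Kdm1a-203. Its junction to the upstream exon stood at a log2 fold of -0.36 in the authors' deposited table, against 0.32 for the skipping junction (p = 0.0283). Read from the downstream side, the authors' deposited table gave -0.30 for the inclusion and 0.31 for the skipping junction (p = 0.0404). By the first pair of folds the ratio of inclusion to skipping was 0.626 times the mock ratio, and by the second 0.656 times. Inclusion had an implied share of 41.7% in the knockdown and 53.3% in the mock knockdown from the first side, and 46.1% in the knockdown and 56.6% in the mock knockdown from the other. By these implied shares both forms of Kdm1a were common in both groups. Leaving the exon out keeps the reading frame, with 853 codons before the stop in place of 873.

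The second Kdm1a exon has 147 nt and is exon 19 of 20, directly before the exon that holds the stop codon. Its skipping junction, which joins exon 18 to exon 20 across an intron of 1427 nt, is not in the gene models. In the listing with the smaller p, the authors' deposited table put this skipping junction at a log2 fold of 0.63 and the inclusion junction at -0.20 (p = 0.0318). In the other listing of the authors' deposited table they were 0.66 and -0.23 (p = 0.0408). The ratio of inclusion to skipping was 0.560 and 0.540 times the mock ratio. Implied inclusion was 70.1% in the knockdown and 80.7% in the mock knockdown, and 68.3% in the knockdown and 80.0% in the mock knockdown from the other side. This exon too is a multiple of 3, and the transcript without it has 824 codons before the stop. The 2 exons lie at opposite ends of the transcript, and whether they change in the same RNA molecules cannot be read from junction folds. The 12 nt exon of Kdm1a at 136563438 to 136563449 on chromosome 4, exon 7 of the partial transcript Kdm1a-208, is the exon known from neuron-specific LSD1. It has no event in the table.

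**Figure D1:**
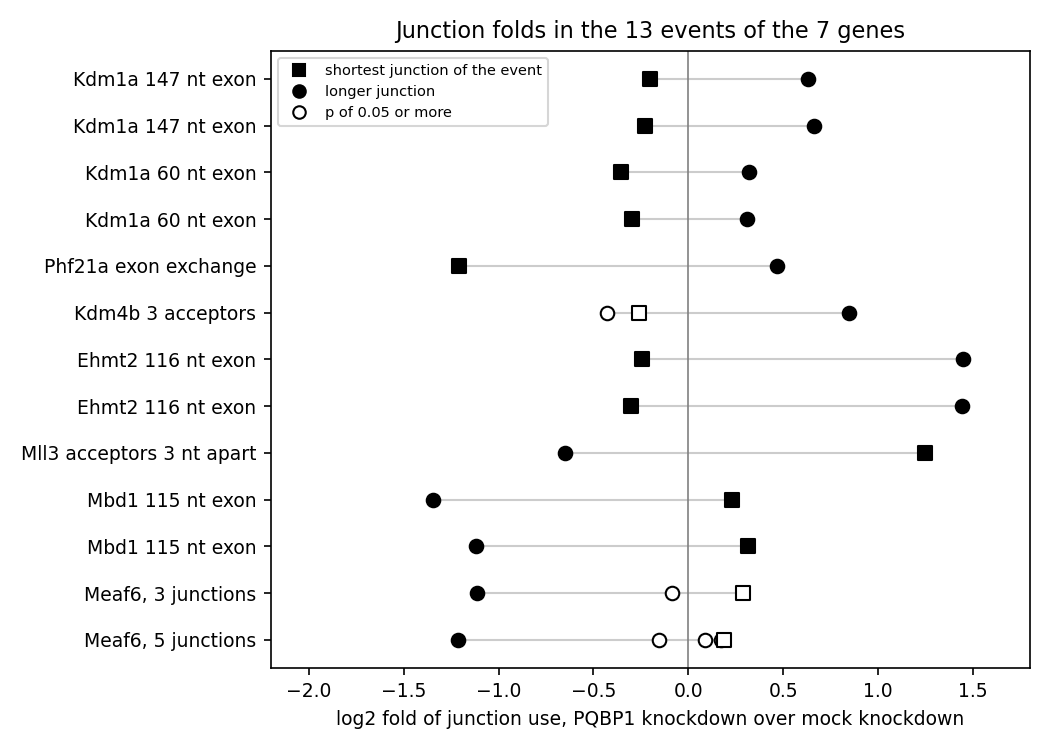
Log2 fold of junction use, PQBP1 knockdown over mock knockdown, for every junction of the 13 events, one event per line. Squares mark the shortest junction of an event and circles the longer ones, and open symbols have a deposited p of 0.05 or more. In the Kdm1a, Phf21a and Ehmt2 events the square lies left of 0 and the circle right of it, with the reverse in Mll3 and Mbd1.

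Phf21a, the partner of LSD1, exchanged one exon for another. Its 164 nt exon and its 23 nt exon lie 69 nt apart, and either is joined to the same next exon. Of the annotated transcripts 7 carry the longer exon, 5 the shorter and 0 carry both. The authors' deposited table lists a log2 fold of -1.21 for the junction leaving the 164 nt exon, against 0.47 for the one leaving the 23 nt exon (p = 0.00778). The 164 nt form over the 23 nt form was 0.313 times the mock ratio. The implied share of the 164 nt form was 17.4% in the knockdown and 40.2% in the mock knockdown, a difference of -22.8 percentage points. Its size ranks 60 among the implied differences of the 408 events with 2 junctions. Both exons leave 2 nt over after whole codons, and their lengths differ by 141 nt, so the exchange keeps the frame. Phf21a-201 built with the short exon has 557 codons before the stop, against 604 as annotated. Phf21a is known to occur as forms with and without a DNA-binding motif called an AT hook. The event was listed from the shared acceptor only, so the 2 junctions entering these exons have no deposited fold.

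Ehmt2 had the smallest p-values among the 7 genes. A coding exon of 116 nt, exon 23 of 27 in Ehmt2-201, was skipped more in the knockdown. Skipping had a log2 fold of 1.45 in the authors' deposited table, and the junction from the exon to the next one -0.24 (p = 0.000653). Read from the upstream side, the authors' deposited table gave 1.44 for skipping and -0.30 for inclusion (p = 0.00227). The ratio of inclusion to skipping was 0.309 and 0.299 times that of the mock knockdown. Implied inclusion of the exon was 77.4% in the knockdown and 91.7% in the mock knockdown, and 73.1% in the knockdown and 90.1% in the mock knockdown from the other side. By these implied shares most Ehmt2 junction use stayed with the exon in both groups, and the large fold sits on the rarer junction. By its smaller p the exon ranks 31 among the 585 events.

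Skipping the Ehmt2 exon changes the reading frame. With the exon left out of Ehmt2-201 the first stop falls after 1087 codons in place of 1263, in exon 24 of the remaining 26, and 231 nt before the last exon junction. A stop in such a place is the usual mark for nonsense-mediated decay, the pathway that removes RNA with an early stop. The 1 annotated transcript with this skipping junction, Ehmt2-208, is classed as a target of that decay, although its annotated coding sequence ends upstream of the 116 nt exon. Decay was not measured, and a change in the stability of the skipped form and a change in splicing cannot be told apart from junction folds.

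**Figure D2:**
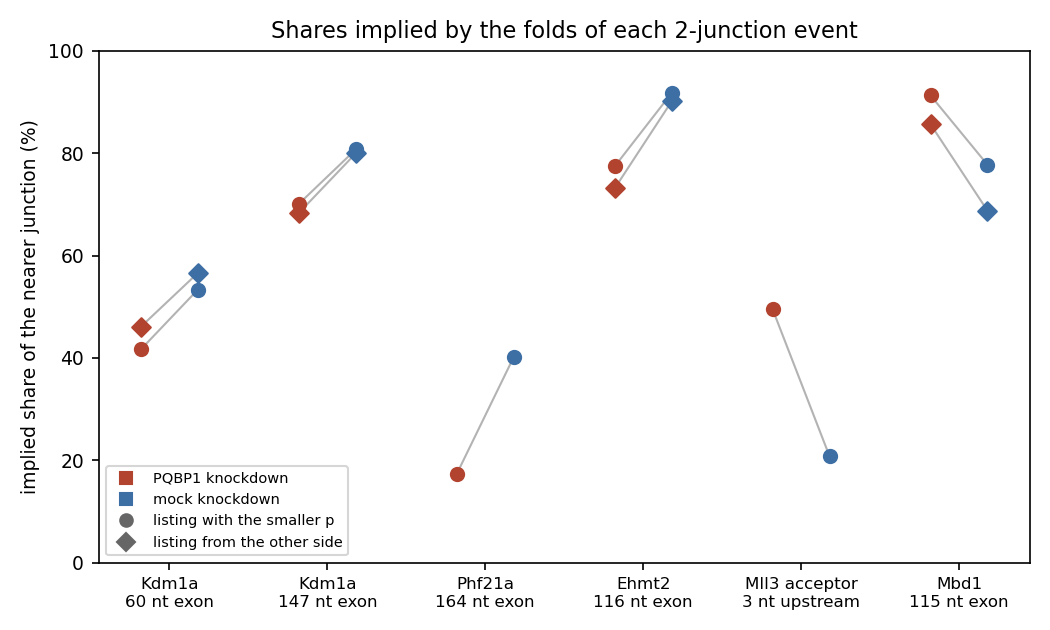
Implied share of the nearer junction in percent for the 6 choices with 2 junctions, PQBP1 knockdown left and mock knockdown right of each pair. Circles come from the listing with the smaller p and diamonds from the listing of the same exon from its other side. The share is lower in the knockdown for Kdm1a, Phf21a and Ehmt2 and higher for Mbd1 and Mll3, and no error can be drawn because the table has no value per sample.

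Mbd1 went the other way from Ehmt2, towards keeping a frame-changing exon. The exon has 115 nt, spans 74273209 to 74273323 of chromosome 18 and is exon 3 of 15 in Mbd1-201. For the junction that skips it the authors' deposited table gave a log2 fold of -1.35, and for the junction into it 0.23 (p = 0.0180). Read from the downstream side, the authors' deposited table gave -1.12 for skipping and 0.32 for inclusion (p = 0.0392). The ratio of inclusion to skipping was 2.99 and 2.70 times that of the mock knockdown. The implied share of inclusion was 91.3% in the knockdown and 77.8% in the mock knockdown, and 85.6% in the knockdown and 68.8% in the mock knockdown from the other side. The sides differ by 8.97 percentage points in the mock knockdown, the widest gap among the 4 member exons. Over the 53 exons of the table listed from both sides that gap had a median of 1.82 and reached 34.8 percentage points, and the Phf21a and Mll3 shares come from a single side each. The skipping junction is not annotated. Without the exon the first stop comes after 85 codons in place of 588, in exon 3 of the remaining 14 and 1321 nt before the last exon junction. For both Ehmt2 and Mbd1 the form without the exon is thus the one with the early stop, and its relative use was higher in the knockdown for Ehmt2 and lower for Mbd1.

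The 2 histone H3 enzymes Mll3 and Kdm4b changed in the choice between nearby acceptors of one exon, 3 nt apart in Mll3 and 21 nt apart in Kdm4b. In Mll3 the 139 nt exon 3 of 59 in Kmt2c-201, on chromosome 5 at 25414885 to 25415023, can begin at its annotated acceptor or at an unannotated one 3 nt upstream. The 3 nt between them were not read here, so the codons they would add, or a stop among them, are not known. In the authors' deposited table the upstream acceptor had a log2 fold of 1.25 and the annotated one -0.65 (p = 0.0485). The ratio of the upstream to the annotated acceptor was 3.73 times the mock ratio. The implied share of the upstream acceptor was 49.5% in the knockdown and 20.8% in the mock knockdown. That difference of 28.7 percentage points ranks 13 among the 408 events with 2 junctions, while the p ranks 564 among 585 events. The authors' list ends at the 0.05 threshold, so this event stands just inside it and none stands outside.

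Of the 408 events with 2 junctions, 12 choose between sites 3 nt apart, all of them acceptors, and in 7 the site that gives the longer exon was used more in the knockdown. Their ratios run from 0.355 to 5.26 times the mock ratio. Setdb1, a methyltransferase for H3K9, is among them with the opposite sign to Mll3. Its ratio of the longer to the shorter exon was 0.403 times the mock ratio, with an implied share of the longer exon of 76.9% in the knockdown and 89.2% in the mock knockdown.

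Kdm4b has 3 acceptors for its exon 13 of 23, the second 21 nt and the third 27 nt after the first. In the authors' deposited table the second acceptor had a log2 fold of 0.85 (p = 0.0190). The first, used in Kdm4b-201, had one of -0.26 in the authors' deposited table (p = 0.0743), and the third, which is not annotated, one of -0.43 (p = 0.535). The ratio of the second to the first acceptor was 2.15 times the mock ratio, and that of the second to the third 2.42 times. The second acceptor omits the 21 nt shown above and keeps the frame, as does the third. Only the change of the second acceptor had a p under 0.05.

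Meaf6 has a cluster of small exons before its end, and the junction that jumps over them was used less in the knockdown. From the 193 nt exon, splicing can go to a 74 nt exon, to a 30 nt exon, to a 58 nt exon, to a 34 nt exon or to a separate last exon of 313 nt. The junction straight to the 34 nt exon, 5291 nt long and annotated in Meaf6-205, was listed in 2 events. In the authors' deposited table its log2 fold was -1.22 in the event of 5 junctions with the shared donor (p = 0.0168). It was -1.11 in the authors' deposited table in the event of 3 junctions with the shared acceptor (p = 0.0327). The other junctions had p-values over 0.05 in both events. From the 193 nt exon, the authors' deposited table gave a log2 fold of 0.17 for the junction to the 30 nt exon (p = 0.138) and 0.09 for the one to the 58 nt exon (p = 0.896). The junction to the 74 nt exon had one of 0.19 in the authors' deposited table (p = 0.736), and the one to the separate last exon -0.16 (p = 0.799). Towards the 34 nt exon, the authors' deposited table gave 0.29 for the junction from the 58 nt exon (p = 0.0835) and -0.08 for the one from the 30 nt exon (p = 0.531).

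The alternatives in Meaf6 were also set against the jump. The ratio of the junction into the 74 nt exon to the jump was 2.65 times the mock ratio, that of the junction into the 30 nt exon 2.61 times, that of the junction into the 58 nt exon 2.46 times, and that of the separate last exon 2.08 times. From the acceptor side the ratio to the jump was 2.64 times for the 58 nt exon and 2.04 times for the 30 nt exon. These values share the lower jump in their denominator and are not separate results, and each alternative alone had a p over 0.05, with folds on both sides of 0. The 30 nt exon is in frame, with 201 codons before the stop against 191 in Meaf6-205. The 58 nt exon holds an in-frame stop after 181 codons in Meaf6-208, 79 nt before the last exon junction, and that transcript is classed as a target of nonsense-mediated decay. With 3 or 5 junctions the folds do not fix the shares, so none are given.

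**Figure D3:**
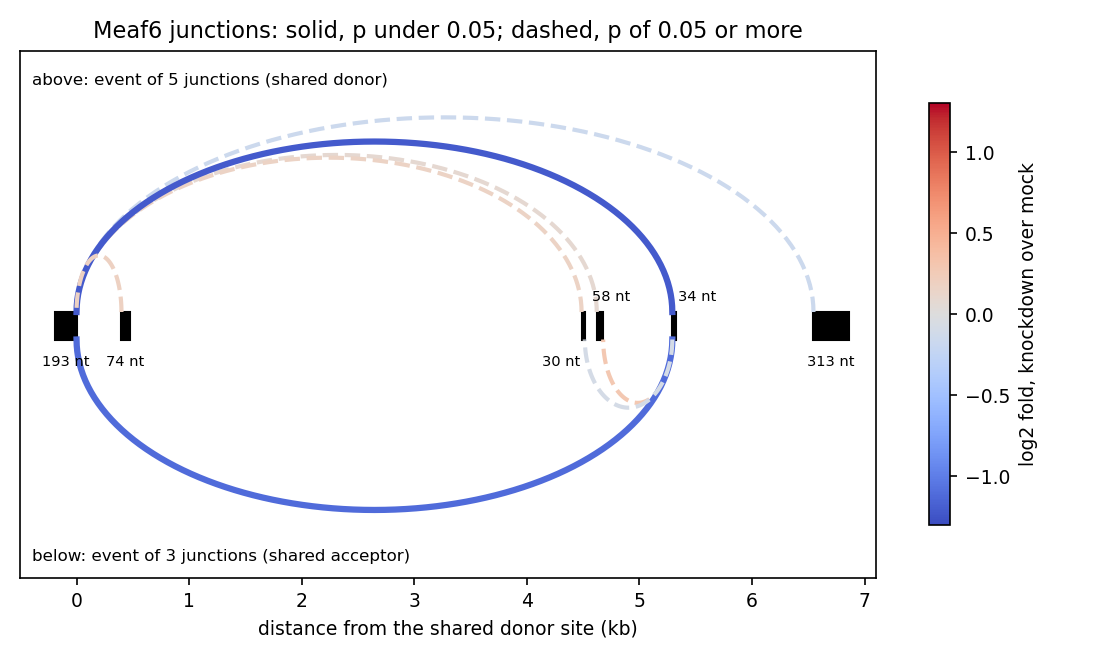
Junctions of Meaf6 by distance in kb from the shared donor site, with exons as black boxes to scale and arcs coloured by the log2 fold of PQBP1 knockdown over mock knockdown. Arcs above belong to the event of 5 junctions and arcs below to the event of 3, and solid arcs have a deposited p under 0.05. The jump from the 193 nt to the 34 nt exon is the only solid arc on either side, at -1.22 and -1.11.

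Across the 7 genes, 23 of 31 junction rows had p under 0.05 in the authors' deposited table, against 76.2% of the 1389 junctions with a p in the whole table. Since each listed event has at least 1 such junction, this share says nothing particular about the members. In the 3 events with more junctions 3 of 11 rows passed, against 42.4% in all such events. At p under 0.01 it was 6 of 31 rows, those of Ehmt2 and Phf21a, against 20.4%. The nearer junction was used less in 7 of the 10 events with 2 junctions, against 57.1% of all 408. Among these, 6 of 8 cassette exon listings had lower inclusion, against 62.5% of 277. Counted by exon it was 3 of 4, against 59.8% of 224. The median size of the ratio change was 1.51 on the log2 scale in the 10 member events and 1.36 in all 408. Among cassette exons alone, each counted once, the order was reversed, at 1.21 in the 4 member exons and 1.37 in all 224. That set also leaves out Phf21a and Mll3, which are not cassette exons and had log2 changes of -1.67 and 1.90. By gene the sizes differ: the Kdm1a listings, from 0.61 to 0.89 on that scale, rank between 337 and 394 of 408, and those of Ehmt2, 1.69 and 1.74, rank 115 and 103.

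**Figure D4:**
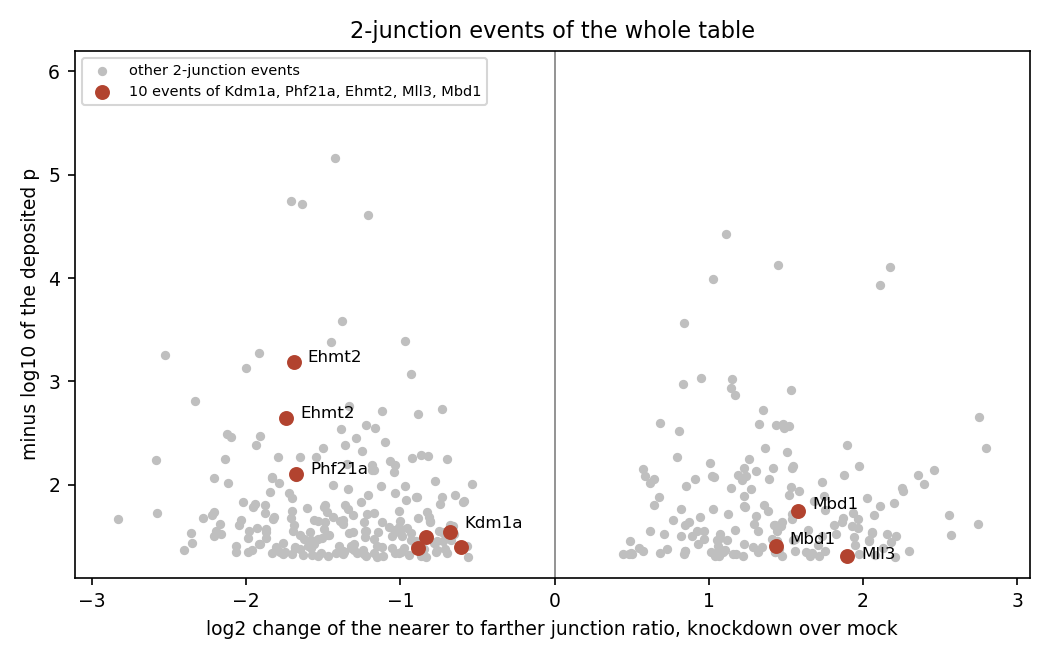
Log2 change of the nearer to farther junction ratio, PQBP1 knockdown over mock knockdown, against minus log10 of the deposited p for the 408 events with 2 junctions. The 10 member events are in red. Ehmt2 lies highest among them, the 4 Kdm1a listings lie close to the lower edge with small changes, and the list holds no event with a change near 0.

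Features that the choice of members did not use were described beside the table. Of the 4 member cassette exons, 2 have a length that is a multiple of 3, against 66.1% of the 224 cassette exons of the table. Their GC content was 58.6% for Ehmt2, 56.7% and 55.8% for the 60 nt and 147 nt exons of Kdm1a and 51.3% for Mbd1, against a median of 51.5% over the table. The exon with higher inclusion, that of Mbd1, had the lowest value of the 4. GC content was not compared by direction of change over the table, so no link is read from this. Lengths of 60 to 147 nt compare with a median of 90 nt. All 4 were listed from both sides with the same sign, as were all 53 such exons of the table, whose sides share the skipping junction. Of the 26 distinct member junctions 22 are annotated, and the 4 that are not are the skips of the Kdm1a 147 nt exon and the Mbd1 exon, the upstream acceptor of Mll3 and the third acceptor of Kdm4b.

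Other genes of the same pathways were looked up by list. Of 229 symbols in 8 lists of LSD1 complex, histone methylation, histone acetylation, deacetylation and methyl-DNA genes, older and newer names included, 9 had an event, and 7 of these are the members. Chromatin genes outside these lists were not counted. Of the 18 symbols around LSD1, which include the CoREST genes Rcor1, Rcor2 and Rcor3 and the deacetylases Hdac1 and Hdac2, Kdm1a and Phf21a had events. None of the 34 deacetylase and corepressor symbols had an event. The whole table holds 457 genes, but how many genes were tested is not known. No share over all genes can thus be set beside these counts, and no difference between the lists is read from them. Besides Setdb1, the other gene was Dot1l, another histone H3 methyltransferase. Its 631 nt cassette exon on chromosome 10 was included at 3.54 times the mock ratio (p = 0.0297 in the authors' deposited table), an implied share of 30.1% in the knockdown and 10.8% in the mock knockdown. A gene without an event may have been unchanged, too lowly expressed or not tested, which the table does not tell.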

How the data were processed

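PolyA RNA of 2 PQBP1 knockdown and 3 mock knockdown samples was compared. Per the labels' protocols, RNA was extracted with RNeasy and libraries were made with an IntegenX PrepX mRNA kit. The submitters' processing notes name TopHat2 2.0.4 and the build mm10. How junctions were counted, tested and filtered was not given in the sources used here.

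Per junction, the authors deposited 1 log2 fold (knockdown over control) and 1 p-value, per the file headers. No adjustment is named there, so p-values were read as unadjusted; 13 cells are empty. Neither depth nor precision per sample is known. In all 408 events with 2 junctions the p-values of both junctions are equal (relative tolerance 1e-06) and the signs opposite, so the fold was read as a change of use within the event. Members and gene lists were chosen with earlier results of these data known. Named genes are all 7 members and the listed pathway genes with an event.

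Gene names and event numbers were filled downwards. Adding 1 to the deposited start and end gave introns, of which 1179 of 1402 equal one of GENCODE M21 on GRCm38. Of the 7 symbols 6 matched those models and Mll3 was matched as Kmt2c by its synonym in RefSeq. A cassette exon is an annotated exon that the nearer junction enters and that is spliced to the farther site. The implied share of the nearer junction was solved from its fold and that of the farther one, assuming that the shares of a group add up to the whole. Recovering known shares was checked on simulated data, and exact recovery was required only where no noise was added. The check thus gives no precision for the implied shares reported here. The simulated shares add up to the whole too, so this check does not test the assumption. Stops were found by reading the annotated start codon's frame through the altered transcript. No test of its own was run, and the design's count tests were not used because there are no counts. Python 3.11.15, pandas 2.3.3 and matplotlib 3.10.9 were used. The alternatives were a stricter p, annotated junctions alone, 2-junction events alone, each exon once, the other side of an exon, and the longest fitting exon.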

Additional observations from a re-analysis of the deposited data

How the results depend on the processing

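The deposited table allows few checks. No paired analysis was possible because the table holds no value per sample, and for the same reason leaving out a replicate, a replicate block, other normalizations and filters on low counts were not run. Of 31 member junctions 23 had p under 0.05 in the authors' deposited table (76.2% in the whole table), 6 had p under 0.01 (20.4%), 18 of 25 annotated ones had p under 0.05 (78.9%), and so did 20 of 20 in 2-junction events, where every listed junction does. The nearer junction was lower in 7 of 10 events (57.1% in the whole table), in 4 of 6 with each exon counted once (54.6%), in 5 of 5 with both junctions annotated (54.2%) and in 3 of 3 at p under 0.01 (52.4%). With annotated junctions alone Mbd1, Mll3 and the Kdm1a 147 nt exon drop out. The 5 events left are the Kdm1a 60 nt exon and the Ehmt2 exon, each listed from both sides, and Phf21a. The 3 events at p under 0.01 are Ehmt2 from both sides and Phf21a. The sign of the change was the same for the 4 cassette exons read from their other side, as for all 53 such exons of the table. Both sides of an exon share the skipping junction, so they are not separate results. Only 1 annotated exon fitted each of the 4, so its longest and shortest fitting exon were the same by construction.

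Read from the other side, the implied share of inclusion in the knockdown was 46.1% and 68.3% for the Kdm1a 60 nt and 147 nt exons, 73.1% for Ehmt2 and 85.6% for Mbd1, and in the mock knockdown 56.6%, 80.0%, 90.1% and 68.8%. With no spread between samples, how far such gaps reach beyond error was not tested. The p-values were read as unadjusted and the list is selected by them, so the folds describe the listed events only.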
